A study of Rattus norvegicus with 458 samples.

Results

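MicroRNA miR-802 gives 2 mature strands, miR-802-5p and miR-802-3p, from the 5′ and 3′ arms of one hairpin. They were selected by name in the first column of the count tables, as 2 of 7534 names, because the strands were high in liver, pancreas and small intestine in these same libraries. Tissue levels and the ratio of the strands by tissue are therefore given as a description, with no test. Small RNA was sequenced from naive Sprague Dawley rats aged 12 to 13 weeks, 5 male and 5 female, with no treatment group. The libraries carried 23 tissue labels. The dorsal root ganglion RNA was provided by Takeda Pharmaceuticals, under numbers other than those of the rats. It had 10 technical libraries of 2 pools, 1 per sex. Testis, ovary and uterus had 5 rats each. As these were whole tissues, fewer cells of a type and less RNA per cell cannot be told apart.

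A miRNA hairpin is cut by Drosha and Dicer into a duplex, and one strand is loaded into an Argonaute protein, where bases 2 to 8 (the seed) direct pairing with target mRNAs. Reads of one arm that differ in their ends are called isomiRs. In mice, hepatic miR-802 has been linked to obesity.

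The hairpin is shown because both strands and their ends are described on it. RefSeq places Mir802 on the plus strand of chromosome 11 of GRCr8 (chr11:46112362-46112457, 96 bases), within the lncRNA gene LOC134480977. Capitals mark the most counted sequence of each arm.
Mir802 hairpin: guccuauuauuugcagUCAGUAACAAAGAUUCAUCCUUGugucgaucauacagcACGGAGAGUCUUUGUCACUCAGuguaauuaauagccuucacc

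The following sequences, read from the deposited isomiR table in DNA letters with the seed in capitals, hold most counts of each strand in these tissues. The 5p forms differ at the 3′ end, and the third also begins 1 base later and so has a shifted seed. It took a mean of 5.01% of miR-802-5p counts in liver, 6.04% in pancreas and 6.51% in jejunum.
5p, 23 bases: tCAGTAACaaagattcatccttg
5p, 21 bases: tCAGTAACaaagattcatcct
5p, later start: cAGTAACAaagattcatccttgt
3p, 22 bases: aCGGAGAGtctttgtcactcag
3p, 23 bases: aCGGAGAGtctttgtcactcagt
3p, 19 bases: aCGGAGAGtctttgtcact

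None of 724 mature rat miRNAs listed by RefSeq shared either seed, and the listing held no mature miR-802 entry. The table gave 324 sequences for miR-802-5p and 264 for miR-802-3p. Sequences found exactly in the hairpin held 94.7% of the 76608 counts of miR-802-5p and 90.5% of the 36549 counts of miR-802-3p.

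Before the levels, 10 libraries stood apart from their labels. The duodenum libraries of rats 2, 4, 7 and 11 resembled adrenal, cerebrum or hippocampus, and held 0.194 to 0.985 CPM of miR-802-5p. In those 4, the summed small intestine markers miR-215, miR-194-5p and miR-192-5p reached 361 to 1827 CPM, against 360763 to 481149 CPM in the other 6 duodenum libraries. Conversely, 1 library each labelled adrenal, hippocampus, ovary and uterus resembled jejunum or duodenum. They held 165, 187, 240 and 235 CPM of miR-802-5p, while no other library of those labels exceeded 2.05 CPM. The last 2 were the hippocampus libraries of rat 2, labelled male, and rat 7, labelled female. They were nearest uterus and ovary, with 0 counts of miR-802-5p each. Labels of tissue, rat and sex were kept, and the tissue values below leave these 10 libraries out unless stated.

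Liver held the highest level of both strands. For miR-802-5p it had a lowest, median and highest value of 761, 1055 and 1386 CPM over 10 rats (mean 1064 ± 178, SD). For miR-802-3p it had 286, 516 and 734 CPM (mean 502 ± 150, SD, n = 10). On the full total of each library, no liver library overlapped any other tissue for either strand, and liver exceeded the pancreas in 10 of 10 rats, by a median of 4.48-fold for miR-802-5p. Among 3077 names with a count in liver, miR-802-5p ranked 48 and miR-802-3p ranked 68 by mean level. In the pancreas they ranked 86 and 148.

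The distance to the pancreas depended on the total used. A joint entry of miR-148a-3p with a predicted name held 59.4% of pancreas counts, and with predicted and precursor names left out of the total the pancreas had up to 934 CPM of miR-802-5p (mean 651 ± 130, SD, n = 10) and the liver 813 to 1491 CPM (mean 1135 ± 192, SD, n = 10). The libraries then overlapped, with liver higher in 10 of 10 rats by a median of 1.86-fold.

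Pancreas came next for miR-802-5p, at 175, 245 and 362 CPM (mean 255 ± 54.2, SD, n = 10). Its miR-802-3p was lower, at 58.6, 77.0 and 88.8 CPM (mean 75.6 ± 9.67, SD), the lowest mean of the 5 tissues. By means the pancreas ranked 2 of 23 labels for miR-802-5p and 5 of 23 for miR-802-3p. Within rats, the pancreas was above the jejunum in 10 of 10 rats for miR-802-5p (median 1.51-fold) but in 2 of 10 for miR-802-3p (median 0.859-fold). With predicted and precursor names left out, the pancreas had 163 to 244 CPM of miR-802-3p (mean 194 ± 25.3, SD) and lay above all gut libraries for both strands.

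In the gut, miR-802-5p was at 177, 209 and 252 CPM in the duodenum (n = 6), at 122, 189 and 280 CPM in the ileum (n = 10) and at 113, 167 and 218 CPM in the jejunum (n = 10). Its 3′ partner had means of 103 ± 14.2, 107 ± 17.5 and 86.3 ± 18.6 CPM (SD) in that order. On the full total, pancreas and the 3 gut segments overlapped each other, and their order depended on scaling: with upper quartile sizes the ileum had 298 CPM, the jejunum 289 CPM and the pancreas 283 CPM of miR-802-5p. With all 10 libraries of its label the duodenum had a mean of 128 ± 112 CPM (SD).

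Pancreas markers moved with the duodenum. The 6 names for miR-216a, miR-216b and miR-217 summed to 672 to 1515 CPM in its 6 libraries and to 8921 to 16944 CPM in pancreas, but to at most 1.81 CPM in jejunum and ileum. Their part in the duodenal miR-802 was not tested.

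**Figure D1:**
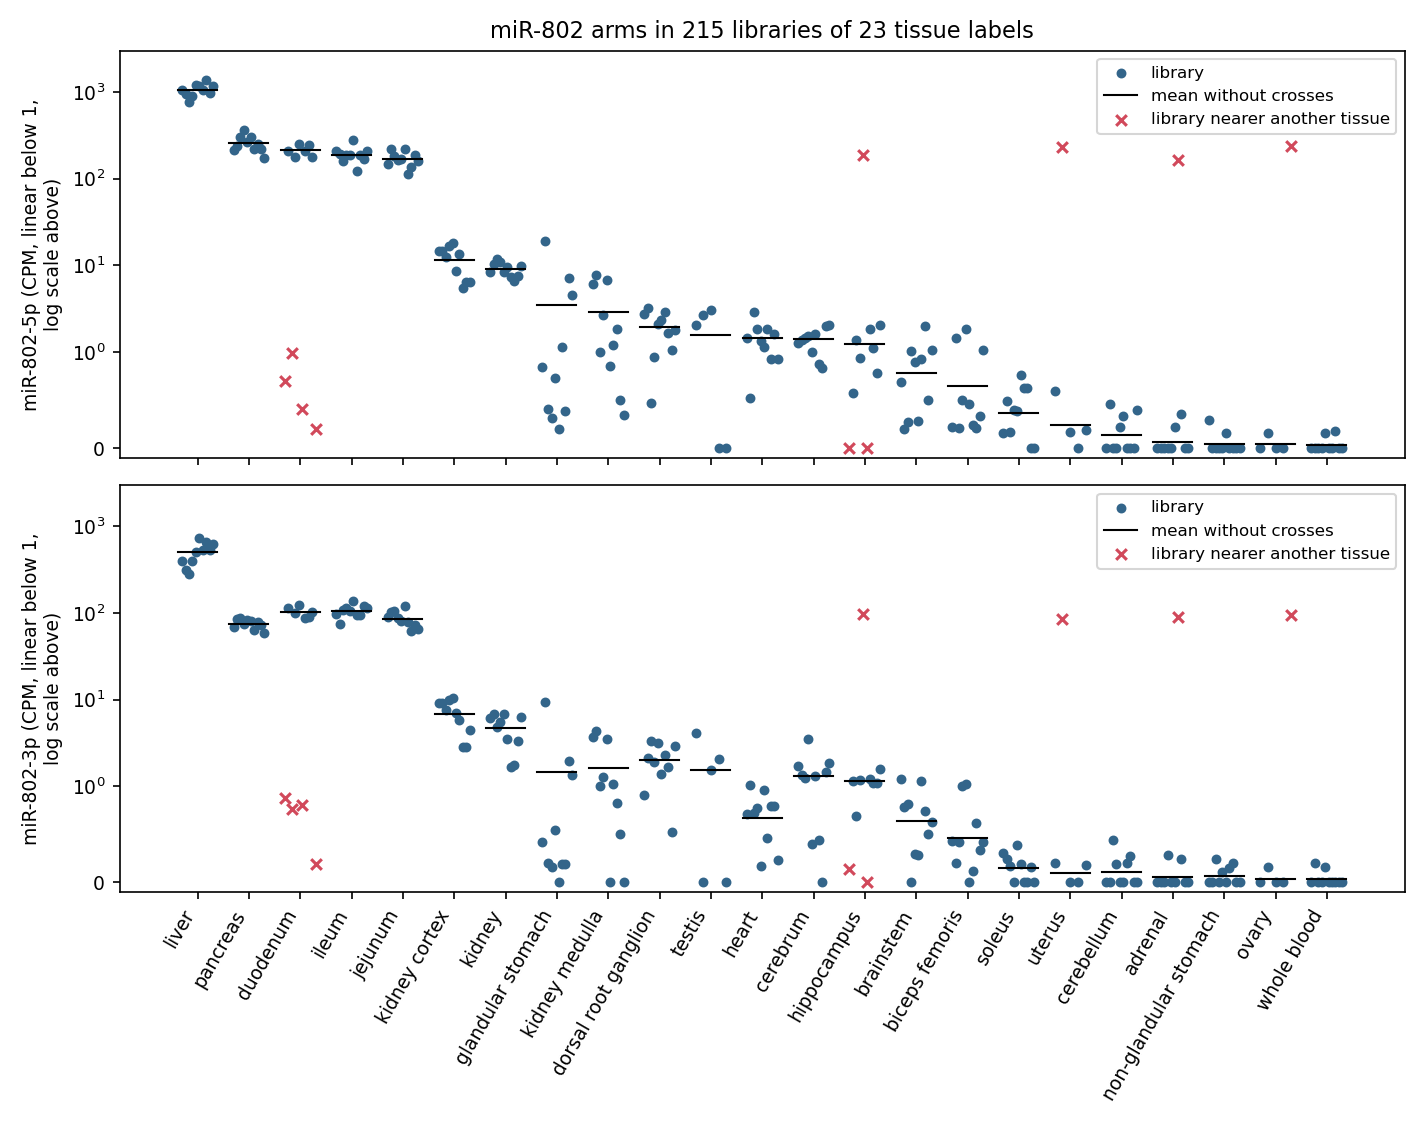
Level of miR-802-5p (top) and miR-802-3p (bottom) in CPM, linear below 1 and logarithmic above, in every library by tissue label. Points are libraries, lines are means, and crosses are the 10 libraries nearer another tissue. On the full total liver lies above all other tissues, and pancreas and the gut segments overlap.

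The 5 tissues held 98.1% of the sum of the tissue means for miR-802-5p and 97.4% for miR-802-3p. A wide gap followed. Kidney cortex had 5.40, 13.0 and 17.9 CPM of miR-802-5p (mean 11.6 ± 4.56, SD, n = 10) and whole kidney 6.57, 9.01 and 11.8 CPM (mean 9.05 ± 1.71, SD, n = 10), so that liver was 91.8-fold and 118-fold higher by means. Kidney medulla was lower, with a median of 1.52 CPM. In kidney cortex the liver markers miR-122-5p and miR-122-3p summed to at most 2.80 CPM.

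Glandular stomach had 7 rats at or below 1.14 CPM of miR-802-5p and 3 above. Rat 3 had 19.3 CPM (342 counts), rat 10 had 7.06 CPM and rat 11 had 4.58 CPM. Other tissues' markers moved with these libraries: rat 3 held 12303 CPM of miR-215, against 8.70 to 80.6 CPM in the other 9 rats, and 66.5 CPM of miR-122-5p. Rats 10 and 11 held 86.4 and 46.2 CPM of miR-216a-5p, against at most 0.409 CPM in the rest. Their part in the gastric miR-802 was not tested.

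Means in the remaining tissues were under 2 CPM for miR-802-5p, and 8 of 10 whole blood libraries held no count, which allowed 0.302 to 0.638 CPM in each (3 counts of the total). Dorsal root ganglion, testis, heart, cerebrum and hippocampus overlapped in level.

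Next to each other, the 2 strands had the most similar tissue pattern of 581 names (Pearson's r = 0.99 of log2(mean CPM + 1) over 23 tissue labels with only the 4 duodenum libraries set apart, a description across tissues that share libraries). After them came miR-3559-5p (r = 0.85 with miR-802-5p), miR-192-3p (0.80), miR-31a-3p (0.79) and the shared entry of miR-192-5p and miR-215 (0.78). The order was the same for miR-802-3p. Levels of miR-3559-5p were 160 CPM in liver and 57.1 CPM in pancreas. Without all 10 libraries nearer another tissue, r with miR-802-5p was 0.88 for miR-3559-5p and 0.82 for miR-192-3p, miR-194-3p, named after its values were seen, was at rank 4 (0.80) and miR-31a-3p at rank 11 (0.70).

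The pancreas had the highest median strand ratio of the 5 tissues. Counts of miR-802-5p per count of miR-802-3p had a lowest, median and highest value of 2.78, 3.21 and 4.79 in pancreas, 1.61, 2.16 and 3.03 in liver, 1.72, 1.93 and 2.76 in duodenum, 1.45, 1.99 and 2.53 in jejunum and 1.29, 1.78 and 2.55 in ileum. Kidney cortex had a median of 1.66. Other libraries reached the pancreas range: whole kidney, on fewer counts, ran from 1.23 to 4.43 (median 2.13), and glandular stomach of rats 10 and 11 had 3.58 and 3.40. The highest value, of pancreas rat 5, came from a library with runs on a lane described below, and its runs on flow cell D1GBMACXX alone held 189 counts of miR-802-5p and 34 of miR-802-3p, a ratio of 5.56. On that flow cell pancreas ratios scattered from 2.24 to 7.75, the highest in rat 9 from 31 and 4 counts.

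Sequence composition was not used to choose the strands and was tested between tissues. The 23-base form of miR-802-5p made up 49.1 ± 8.86% (SD, n = 10) of its counts in pancreas, against 74.9 ± 2.47% in liver and 79.0 ± 3.23% in jejunum (n = 10 each). Its 21-base form took 20.9 ± 4.63% in pancreas and 4.90 ± 0.872% in liver. Outside the 5 tissues, on fewer counts, that form took 12.9 ± 5.07% in kidney cortex (n = 9) and 9.69 ± 4.86% in whole kidney (n = 10). Pancreas libraries did not overlap those of liver or jejunum in the share of the 23-base form (permutation test, adjusted p = 0.0002 for each, from the smallest p that 100000 permutations give, 2e-05). Over all names with enough counts, 13.4% of 201 did not overlap between liver and pancreas and 18.6% of 183 between pancreas and jejunum.

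Mean length of miR-802-5p was 22.4 ± 0.200 bases in pancreas and 22.9 ± 0.0278 bases in liver (permutation test, adjusted p = 0.0008, n = 10 each). For miR-802-3p it was 21.4 ± 0.235 and 22.1 ± 0.0887 bases (permutation test, adjusted p = 0.00034, n = 10 each), and its 19-base form took 16.4 ± 5.78% in pancreas against 7.02 ± 1.98% in liver. Kidney cortex had 13.9 ± 4.95% of that form (n = 8) and whole kidney 12.5 ± 6.58% (n = 7), on fewer counts. In the length of miR-802-3p the pancreas did not overlap the jejunum or the ileum. Of all names, 14.9% did not overlap in length between liver and pancreas, 5.42% between pancreas and duodenum, 8.74% between pancreas and jejunum and 9.43% between pancreas and ileum. Shorter reads in the pancreas were common among all names: 79.6% of 201 names were longer on average in liver, with a median difference of 0.138 bases. RIN was 4.9 to 6.8 in pancreas and 7.4 to 8.4 in liver. All pancreas libraries were extracted again and all ileum libraries were first extractions, so tissue and extraction cannot be told apart between them. Liver, duodenum and jejunum held both kinds. The parts of RIN and extraction in the lengths and shares were not tested.

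Liver differed from the gut in miR-802-3p. The 22-base form held 39.4 ± 2.04% in liver and 60.8 ± 4.11% in jejunum, without overlap (permutation test, adjusted p = 0.0002, n = 10 each), where 20% of 185 names did not overlap. The 23-base form, with 1 more T, took 34.9 ± 2.61% in liver and 22.1 ± 4.21% in jejunum. Between duodenum, jejunum and ileum 0 of 18 permutation tests passed and 0 had an unadjusted p under 0.05, although 1 passed without 2 lanes described below.

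In all, 25 of 60 tests passed. With the rat as a block 15 passed: the 5 calls with the duodenum, where 6 rats allow no p under 0.031, and 5 others were lost, and the calls named above were kept.

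**Figure D2:**
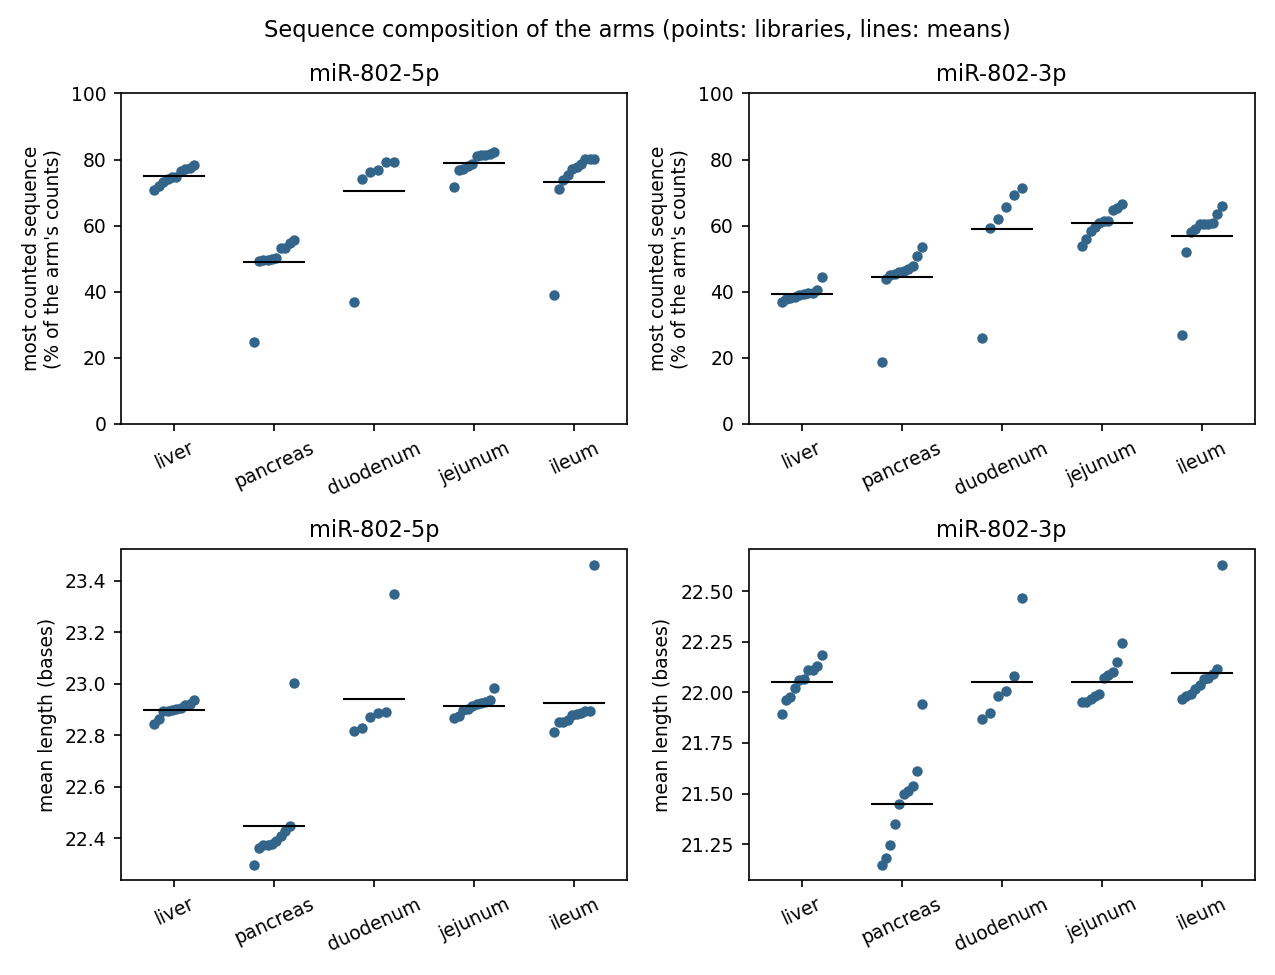
Share of the most counted sequence (top, % of the arm's counts) and mean read length (bottom, bases, axes not from 0) of each arm in 5 tissues. Points are libraries and lines are means. Pancreas lies low in length for both arms, and 1 library each of pancreas, duodenum and ileum lies away from its group.

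Those 3 single libraries, of pancreas rat 5, duodenum rat 8 and ileum rat 3, had runs on flow cell C2BUMACXX lane 8. In that lane 63.2% of miR-802 counts began 1 base before the main start, against at most 0.756% in the other 22 lanes. Such a sequence is shown for its added base, with bases 2 to 8 of the read in capitals. The added base is t, where the hairpin has g, and reads with g, a or c added were also counted. Whether these reads are mature forms of miR-802 was not tested.
5p, added base: tTCAGTAAcaaagattcatccttg
On flow cell D2C4RACXX lane 4, 11.2% of miR-802 counts had another base at position 10, against at most 0.756% elsewhere. Without the runs of these 2 lanes, the 23-base form of miR-802-5p held 52.3 ± 3.02% in pancreas and 75.8 ± 2.45% in liver, and pancreas no longer overlapped any of the other 4 tissues in the length of either strand. The share of all names without overlap was computed with these lanes kept only, so none can be set beside that result. The share of miR-802-5p beginning at its main start moved from 83.8 ± 13.6% to 88.0 ± 2.50% in pancreas. Of the 5′ end calls, those of miR-802-5p between liver and duodenum and of miR-802-3p between jejunum and both liver and pancreas were lost. Others were gained, among them those of miR-802-3p between ileum and both liver and pancreas (permutation test, adjusted p = 0.0031 and 0.0073), and in all 29 of 60 tests passed. Between gut segments, miR-802-5p was 22.87 bases long in duodenum and 22.91 in jejunum (exact permutation test, adjusted p = 0.047).

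**Figure D3:**
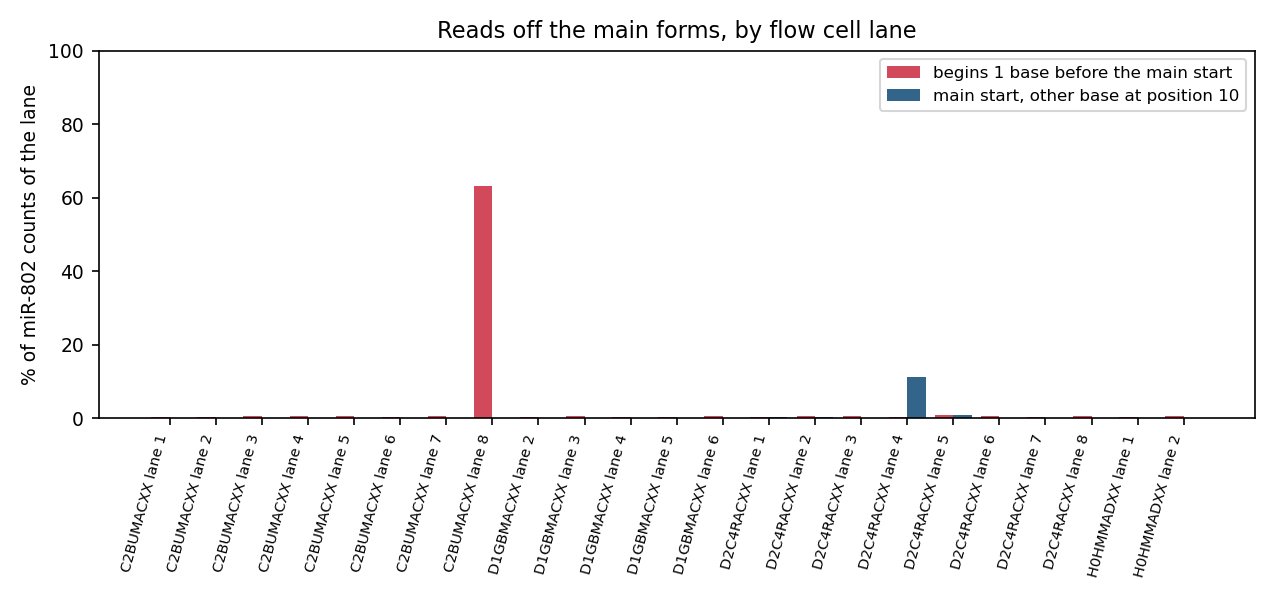
Percent of miR-802 counts in each flow cell lane that began 1 base before the main start or had another base at position 10. Of 23 lanes, 1 stands out for each, at 63.2% and 11.2%.

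Sex was compared within each of the 5 tissues. No level passed the edgeR test in any: 0 of 10 tests of a strand in a tissue had an adjusted p under 0.05, and 0 had an unadjusted p under 0.05, by edgeR or DESeq2 with all tissues in 1 fit. Over all 1233 names tested, 0.324% passed in liver, 0.162% in pancreas and 0.324% in jejunum, and 0% in duodenum and ileum, where 51 and 172 names had an unadjusted p under 0.05 by edgeR. In liver, males had 404, 313, 286, 404 and 504 CPM of miR-802-3p (rats 2 to 6) and females 734, 529, 667, 540 and 635 CPM (rats 7 to 11). Every female lay above every male, and the sexes did not overlap for 2.92% of the 1233 names in liver. The log2 fold change of miR-802-3p, female against male, was 0.56 with an SE of 0.77 (edgeR quasi-likelihood test, adjusted p = 1). That fit kept the adrenal and hippocampus libraries nearer another tissue. Without them the log2 fold change was 0.55 with an SE of 0.46 (edgeR quasi-likelihood test, adjusted p = 0.94). Fitted on liver alone with edgeR the log2 fold change was 0.60 with an SE of 0.22 (p = 0.020, adjusted p = 0.41). With a term for re-extraction in that fit it was 0.42 with an SE of 0.25 (edgeR quasi-likelihood test, p = 0.12, adjusted p = 0.90). The duodenum alone gave the other unadjusted p under 0.05, for miR-802-3p in the opposite direction (log2 fold change -0.48, p = 0.047, adjusted p = 0.69, edgeR). For miR-802-5p in liver the sexes overlapped, with a log2 fold change of 0.12.

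The ratio of the strands in liver differed by sex. Males had 2.60, 3.03, 2.66, 2.23 and 2.37 counts of miR-802-5p per count of miR-802-3p and females 1.61, 2.00, 2.08, 1.81 and 1.85. The groups did not overlap, as for 2.11% of 95 miRNAs with both strands counted in liver, and the difference of female against male was -0.46 on the log2 scale (exact permutation test, two-sided, p = 0.0079, adjusted p = 0.040, n = 5 each). That p is the smallest 5 against 5 allows. Extraction moved with sex: 4 of 5 female livers and 1 of 5 male livers were extracted again. Among first extractions the female had 2.08 and the 4 males 2.23 to 3.03, and among repeated ones the male had 2.37 and the 4 females 1.61 to 2.00 (exact permutation within extraction, p = 0.04, the smallest of 25 arrangements). Without any 1 rat the groups still did not overlap, but the adjusted p was 0.079, from p = 0.016, the smallest that exact permutation of 4 against 5 allows. On flow cell D1GBMACXX alone the call was lost (difference -0.51, exact permutation, adjusted p = 0.079).

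In pancreas, jejunum and ileum the sexes overlapped, where 0%, 2.38% and 2.56% of miRNAs did not, with differences of -0.06, 0.11 and -0.19 on the log2 scale (exact permutation, adjusted p = 0.79, 0.65 and 0.65, n = 5 each). The duodenum, at 3 against 3, could not go below p = 0.1 by exact permutation, and its sexes overlapped, unlike 7.61% of miRNAs there. That the liver's sex difference differed from that of another tissue was not shown: against jejunum the exact permutation p was 0.024, adjusted 0.071 over 3 tissues.

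**Figure D4:**
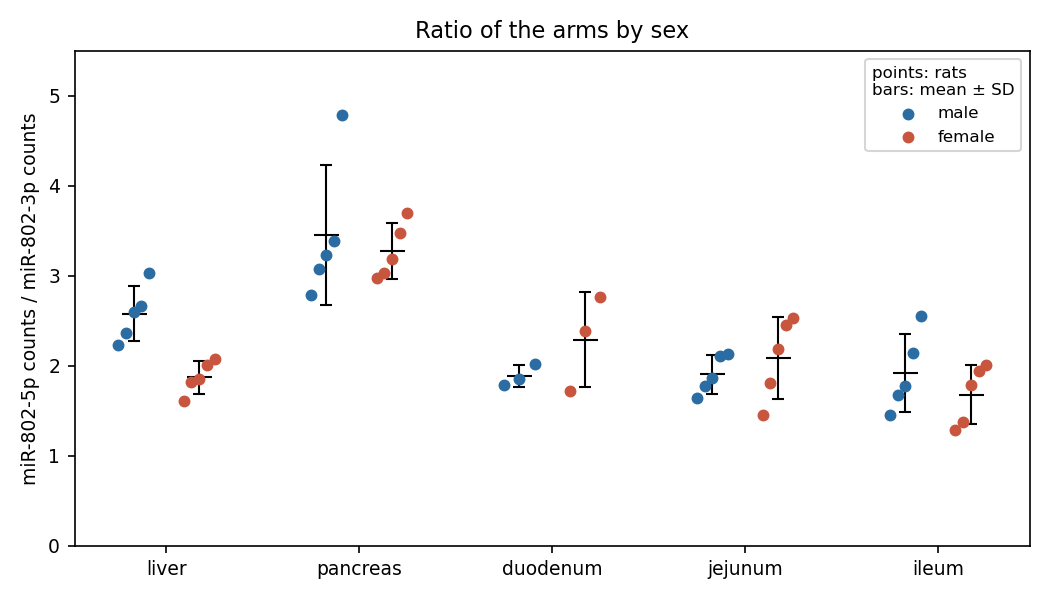
Counts of miR-802-5p per count of miR-802-3p by sex in 5 tissues. Points are rats and bars are mean ± SD. In liver all males (2.23 to 3.03) lie above all females (1.61 to 2.08), and in the other tissues the sexes overlap.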

How the data were processed

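Small RNA libraries were made by the authors with a TruSeq small RNA kit and sequenced on an Illumina instrument. RNA was extracted again by the authors where its integrity number (RIN) was under their limit. The authors trimmed adaptors with cutadapt 1.4.1, discarded short reads and reads with N, and assigned reads to miRBase names with the miRDeep2 quantifier. The deposited values are counts per name or per isomiR sequence in each run, without normalization.

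Here 458 runs were summed to 215 libraries, leaving out 14 runs that repeated a lane of the same library. Library totals ran from 376401 to 17725805 counts. CPM is the count of a name scaled by the library total. Reads carry no molecular identifiers, so limits for libraries at 0 (3 counts) cover counting error only. Names were placed in groups by the tissue and sex labels. Sex was tested with edgeR 4.0.16 quasi-likelihood fits across all names (upper quartile scaling, filterByExpr, Benjamini-Hochberg adjustment, all tissues in 1 fit), with DESeq2 1.42.0 as an alternative. Arm ratios were tested by exact permutation of sex, adjusted over 5 tissues. IsomiR measures (libraries with at least 20 counts of the arm) were tested in each pair of 5 tissues, by 100000 permutations or exactly where a group had fewer than 10 libraries, two-sided and adjusted over 60 tests. Sequences were placed on the RefSeq hairpin without gaps at the start with fewest mismatches. Tests were checked on simulated data (Python 3.11.15, scipy 1.17.1, R 4.3.3). For the sex test the simulated spread was fixed and the same for all names, so that check does not cover the spread of miR-802.

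Same-numbered libraries were taken to come from the same rat, as the labels state. Whether the rat and sex labels are right was not tested. Within-rat differences were also tested by exact sign flips (replicate block). Deviations of same-rat libraries from the tissue means had a median correlation of -0.12 over 60 pairings of tissue, arm and measure. A library was called nearer another tissue where its median correlation with the libraries of another label exceeded that with its own label by over 0.05. Named entries were both arms, other names holding miR-802, the 5 names most correlated with each arm over tissue means, the 5 most counted sequences of each arm and the marker names. Members and lists were chosen with earlier results of these data known.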

Additional observations from a re-analysis of the deposited data

Results flagged for a closer look

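Of 37 groups of libraries examined for a value far from the rest, 12 held one. Some would arise by chance, and both strands were examined in the same libraries, so the groups are not independent. Most of these values came from the libraries nearer another tissue. For miR-802-5p the adrenal library of rat 8 held 165 CPM, the hippocampus library of rat 6 held 187 CPM, the ovary library of rat 11 held 240 CPM and the uterus library of rat 8 held 235 CPM. For miR-802-3p the same libraries held 89.7, 97.1, 95.7 and 85.0 CPM. Glandular stomach of rat 3 lay apart for both strands, at 19.3 and 9.42 CPM, beside 12303 CPM of miR-215. Cerebrum of rat 5 held 3.48 CPM of miR-802-3p, from 16 counts. Pancreas of rat 5 had a strand ratio of 4.79.

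A predicted entry on chromosome 9 with the seed of miR-802-5p held 7 counts in the soleus library of rat 5, above the limit of 3 counts that a count of 0 allows in a library. No other library held more than 2. Its 47 counts in all lay in 33 libraries, with 0 in liver.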

How the results depend on the processing

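Liver had the highest mean of both strands under every scaling and choice of runs tried. Its miR-802-5p moved to 756 CPM with TMM sizes. Leaving out predicted and precursor names raised the pancreas to 651 CPM of miR-802-5p and 194 CPM of miR-802-3p, since the left-out names include a joint entry of miR-148a-3p with 59.4% of pancreas counts. With upper quartile, TMM and DESeq2 sizes the jejunum had 289, 234 and 212 CPM of miR-802-5p and 149, 121 and 109 CPM of miR-802-3p, and the ileum 298, 258 and 245 CPM and 171, 149 and 141 CPM. With all duodenum libraries kept its means were 128 and 62.2 CPM. The mean log2 ratio of the jejunum was 1.29 on flow cell D1GBMACXX alone.

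No sex difference in level passed edgeR's or DESeq2's test under any alternative. Signs changed where the main log2 fold change was at most 0.12 in size, and the changed values reached -0.22, so those directions are not settled. In log2 fold change of female against male, miR-802-5p in duodenum was -0.033 with TMM, -0.015 with DESeq2, -0.16 with a term for re-extraction and -0.22 fitted alone (the term could not be fitted in pancreas and ileum, each of 1 kind of extraction). In jejunum it was -0.15, -0.030, -0.020 and -0.091 in that order, and -0.011 with all duodenum libraries kept, and miR-802-3p was 0.054 with the re-extraction term. Leaving out 1 rat gave -0.17 to 0.31 for miR-802-5p in duodenum, -0.13 to 0.19 in jejunum and -0.042 to 0.47 in liver, and -0.26 to 0.13 for miR-802-3p in jejunum. The liver's log2 strand ratio by sex was -0.51 to -0.40 without 1 rat, each at p = 0.016 (exact permutation), the smallest 4 against 5 allows, and adjusted p = 0.079. It was -0.51 on D1GBMACXX alone (adjusted p = 0.079, exact permutation). There the pancreas was 0.21 and the jejunum -0.20, and without 1 rat the pancreas ran from -0.13 to 0.069.

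With the rat as a block, pairs called fell from 5 to 2 for the 5′ end and from 5 to 3 for the leading sequence of miR-802-5p, and from 2 to 1 and from 5 to 3 for miR-802-3p. On D1GBMACXX alone the 5′ end gave 2 and 1, and liver minus duodenum was -0.0049 percentage points for miR-802-5p. The causes of these changes were not tested. With the block, miR-802-5p's leading sequence in jejunum against ileum had an unadjusted p of 0.043 (exact sign flips, adjusted p = 0.12). The analyses of lanes, flow cells for isomiRs, extraction within liver, single-tissue fits and the 10 libraries were added after the data were seen.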

Other observations

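Kidney medulla split by rat: miR-802-5p was at 6.09, 7.79, 1.00, 2.66 and 6.76 CPM in males and 0.856, 1.19, 1.86, 0.50 and 0.340 CPM in females. These values rest on 2 to 48 counts each and the difference was not tested.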
